A study of Mus musculus with 16 samples.

Results

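The enzymes that divide tryptophan between the kynurenine pathway and protein synthesis were followed in PDA30364 tumors, a transplanted mouse pancreatic ductal adenocarcinoma (PDA), after gemcitabine (GEM) and agonist anti-CD40 Ab. The set holds 7 genes of the 18193 that the arrays represent by name, namely Ido1, Ido2, Tdo2, Kmo, Kynu, Haao and Wars. They were chosen by symbol, through the 13 probe sets annotated to 1 of these genes alone, and the probe set with the highest mean over the 16 arrays stands for each gene. This set and the gene lists below were chosen with earlier results of these data known. Their counts beside shares of all probe sets are therefore descriptions. PDA30364 is 1 cell line, injected in Matrigel under the skin of C57BL/6-Ly5.1 mice that were 6 to 12 weeks old, so all tumors share the same cancer cells and none grew in the pancreas. In the GEM/anti-CD40 Ab group, 4 mice received GEM, a nucleoside analog which halts DNA synthesis, at 120 mg/kg on days 1, 5 and 12 of treatment, with an agonist antibody to CD40, an activating receptor of antigen-presenting cells, on days 3, 4, 6 and 14. The anti-CD40 Ab group (4 mice) received the antibody with the vehicle of GEM. The GEM group (4 arrays, given as 4 mice in the paper) received GEM with control IgG. The control group (4 mice) received vehicle and control IgG. Tumors were taken on day 22 or 23 after inoculation. RNA of whole tumor pieces was measured on Affymetrix mouse genome arrays, and values are log2 intensities after RMA, so that a difference of 1 is a change of 2-fold.

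Tryptophan is an essential amino acid, and most of what is not built into protein is broken down through kynurenine. Ido1, Ido2 and Tdo2 open the tryptophan ring in the first and rate-limiting step. Tdo2 does so mainly in liver, while Ido1 is induced by interferon gamma in dendritic cells, macrophages, endothelial cells and many tumor cells. Kynurenine then passes through Kmo, Kynu and Haao towards quinolinate and NAD. Loss of tryptophan stalls T cells through uncharged tRNA and the kinase Gcn2, and kynurenine is a ligand of the aryl hydrocarbon receptor, which is why Ido1 is regarded as an immune checkpoint. Wars, the cytosolic tryptophanyl-tRNA synthetase, loads tryptophan onto its tRNA and is itself an interferon gamma target. The question put to these arrays was whether the 4 treatment groups differed in this pathway.

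The array values of the tumors were close in overall scale, with medians of 5.6 to 5.66 and 75th percentiles of 8.11 to 8.19. Tumor epithelium markers were high on all arrays (list mean 12.3 to 13.0). Skin keratinocyte markers stood out in control replicate 2 (list mean 8.36) and anti-CD40 Ab replicate 2 (6.62), and skeletal muscle markers in GEM/anti-CD40 Ab replicate 4 (12.3), so the results were also computed without these 3 arrays. The labels give 1 and the same animal number to GEM replicates 3 and 4. Their arrays correlated at r = 0.9948, inside the range of 0.9868 to 0.9966 between arrays of 1 group, and both were kept. This r does not tell whether they came from 1 mouse or 2, and tests with the GEM group count them as 2. Because whole tumor was measured, fewer cells of a type and less RNA per cell cannot be told apart.

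Ido1 was the member with the widest span over tumors. Its log2 signal was 10.57, 10.00, 9.0 and 9.32 in the GEM/anti-CD40 Ab tumors, 9.11, 9.36, 8.44 and 9.67 in the anti-CD40 Ab tumors, 5.96, 8.37, 6.42 and 6.01 in the GEM tumors and 8.98, 6.24, 6.98 and 9.29 in the control tumors. All tumors that received the antibody lay at 8.44 or above, the control group was split between 2 high and 2 low tumors, and GEM replicate 2 was the only GEM tumor above 6.42. The 4 group means followed the order GEM/anti-CD40 Ab (9.72 ± 0.70), anti-CD40 Ab (9.145 ± 0.52), control (7.87 ± 1.49) and GEM (6.69 ± 1.14, all SD, n = 4). Neighbours in this order overlapped in their tumors. On the scale of the whole array, Ido1 sat on average at the 88.3 percentile of probe sets in GEM/anti-CD40 Ab tumors, 84.2 in anti-CD40 Ab tumors, 61.1 in GEM tumors and 72.5 in control tumors. Percentiles place a probe set's own signal and do not compare amounts between genes, whose probe sets bind with different strength.

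**Figure D1:**
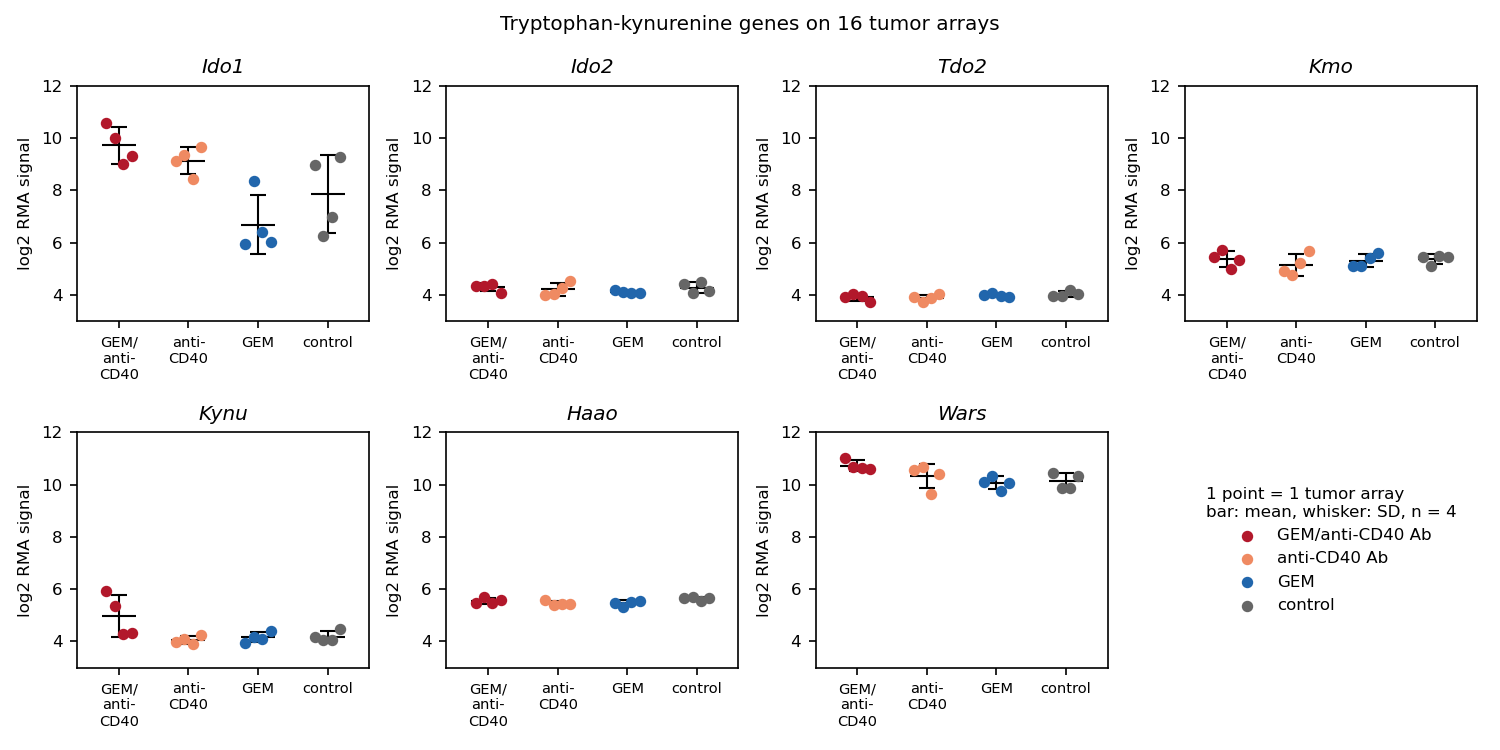
Log2 RMA signal of the 7 genes by treatment group, with 1 point for each tumor array and the mean and SD of 4 tumors in black, all panels on the same axis. Ido1 spans 5.96 to 10.57, while the 16 tumors of Wars lie between 9.64 and 11.02.

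Addition of anti-CD40 Ab to GEM was examined first, in the GEM/anti-CD40 Ab and GEM tumors. Ido1 was 3.03 log2 units higher in the GEM/anti-CD40 Ab tumors, an 8.18-fold difference (SE 0.55, 95% confidence interval 1.80 to 4.26), and the lowest GEM/anti-CD40 Ab tumor (9.0) lay above the highest GEM tumor (8.37). The exact two-sided permutation p was 0.0286, the smallest that 4 against 4 tumors can give. It counts GEM replicates 3 and 4, which carry the same animal number, as separate tumors. In limma's moderated test the unadjusted p was 0.0003, the 65th smallest of 45037 probe sets, and the Benjamini-Hochberg adjusted p was 0.197. No probe set passed an adjusted p of 0.05 in this comparison (0 of 45037, 0%), although 5211 had an unadjusted p under 0.05. The Ido1 difference therefore exceeded the spread between tumors of each group but did not pass the adjustment over the array, and under the alternative settings it ranged between 2.75 and 3.59 with adjusted p of 0.075 to 0.472.

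Wars, the synthetase, spanned 9.64 to 11.02 over the 16 tumors, a narrower range than that of Ido1. It read 11.02, 10.69, 10.63 and 10.59 in the GEM/anti-CD40 Ab tumors, 10.56, 10.69, 9.64 and 10.43 in the anti-CD40 Ab tumors, 10.12, 10.35, 9.76 and 10.07 in the GEM tumors and 10.44, 9.87, 9.86 and 10.34 in the control tumors. The GEM/anti-CD40 Ab tumors were the highest without overlap against GEM and against control, and the single anti-CD40 Ab tumor at 9.64 was the lowest of all 16. Wars was 0.66 log2 units higher in GEM/anti-CD40 Ab than in GEM tumors (SE 0.14, 95% confidence interval 0.35 to 0.96, unadjusted p = 0.0009, adjusted p = 0.197, limma). The 4 Wars probe sets ran in parallel (pairwise r between 0.978 and 0.990), and each of them was higher without overlap, by 0.595 to 0.705. The share of all probe sets that separated without overlap was not computed for any comparison. How unusual such separation is on these arrays, for Wars or for other genes, is therefore not known. In GEM/anti-CD40 Ab against GEM tumors, 11.6% of all probe sets had an unadjusted p under 0.05 (limma).

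Kynu, which splits kynurenine and 3-hydroxykynurenine, stood out in only some of the GEM/anti-CD40 Ab tumors. It read 5.94, 5.34, 4.30 and 4.31 in the GEM/anti-CD40 Ab tumors, 3.99, 4.08, 3.89 and 4.25 in the anti-CD40 Ab tumors, 3.94, 4.18, 4.10 and 4.40 in the GEM tumors and 4.17, 4.04, 4.04 and 4.48 in the control tumors. GEM/anti-CD40 Ab replicates 1 and 2 were the highest of all 16 tumors, while replicates 3 and 4 lay within the range of the GEM and control tumors. The log2 change was 0.82 against GEM (SE 0.34, unadjusted p = 0.0398, adjusted p = 0.409, limma), 0.495 without GEM/anti-CD40 Ab replicate 1, and the second, still dimmer Kynu probe set gave 0.09.

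Together 3 of the 7 genes (Ido1, Wars and Kynu) were higher at an unadjusted p under 0.05 and none lower in GEM/anti-CD40 Ab against GEM tumors, where 5.08% of all probe sets were higher and 6.49% lower by this criterion. The median log2 change was 0.175 over the 7 genes and -0.02 over all named genes. Ido2, the paralog that lies directly beside Ido1 in the genome, read 4.33, 4.34, 4.42 and 4.07 in the GEM/anti-CD40 Ab tumors and 4.18, 4.10, 4.09 and 4.09 in the GEM tumors, a log2 change of 0.175 (adjusted p = 0.446, limma). The log2 changes of Kmo, Tdo2 and Haao were 0.07, -0.07 and 0.09, each with a 95% confidence interval that included 0.

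**Figure D2:**
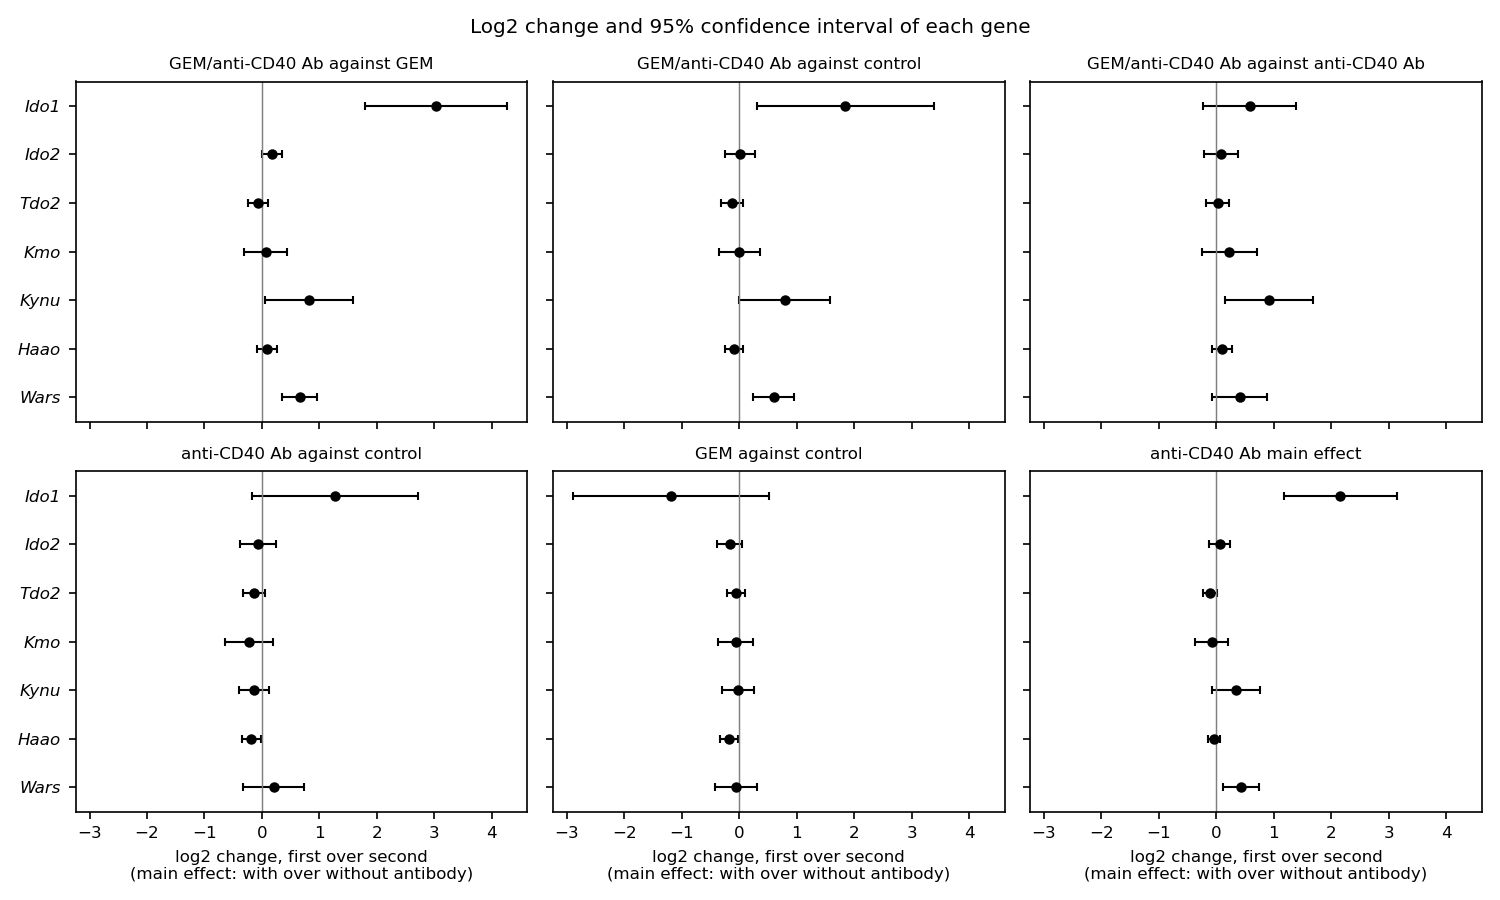
Log2 change of each gene (points) with limma's 95% confidence interval (lines) in the 5 pairwise comparisons and for anti-CD40 Ab over all 16 tumors, with the first-named group over the second. Ido1 in GEM/anti-CD40 Ab against GEM (3.03) lies farthest from 0, and the intervals of Ido2, Tdo2 and Kmo include 0 in all panels.

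Against control tumors, the GEM/anti-CD40 Ab tumors were 1.85 log2 units higher in Ido1 (SE 0.68, unadjusted p = 0.0241, adjusted p = 0.480, limma), but 2 control tumors reached into their range. Wars was 0.605 higher without overlap (SE 0.16, unadjusted p = 0.0040, adjusted p = 0.407), and its 4 probe sets gave 0.575 to 0.642. Kynu was 0.79 higher with overlap (unadjusted p = 0.0493, adjusted p = 0.521), and 0.47 without GEM/anti-CD40 Ab replicate 1. These 3 of 7 genes compare with 4.34% of probe sets that were higher at an unadjusted p under 0.05. An adjusted p under 0.05 was reached by 8 probe sets (0.0178%), none of them of the 7 genes. Both this comparison and the preceding one use the same GEM/anti-CD40 Ab arrays.

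Single-agent treatment gave no gene of the set past the adjusted threshold, and no probe set of the array passed it either (0% for anti-CD40 Ab against control and 0% for GEM against control, with 2739 and 2578 probe sets at an unadjusted p under 0.05). Ido1 was 1.27 log2 units higher in anti-CD40 Ab than in control tumors (95% confidence interval -0.17 to 2.71, adjusted p = 0.815, limma) and its change was -1.18 in GEM against control tumors (95% confidence interval -2.89 to 0.52, adjusted p = 0.864). The control tumors themselves spanned 6.24 to 9.29. Without control replicate 2, the array with skin genes, the anti-CD40 Ab difference was 0.73, and the GEM difference was -0.71 without control replicate 4 and -1.74 without GEM replicate 2. Haao, which forms the precursor of quinolinate, was the only gene of the set with an unadjusted p under 0.05 here. It read 5.60, 5.41, 5.43 and 5.42 in the anti-CD40 Ab tumors, 5.48, 5.31, 5.53 and 5.55 in the GEM tumors and 5.66, 5.72, 5.55 and 5.66 in the control tumors. Its log2 change was -0.18 in both comparisons (unadjusted p = 0.0286 and 0.0325, adjusted p = 0.807 and 0.852), where 3.01% and 2.62% of all probe sets were lower at that level. These comparisons share their control arrays.

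Addition of GEM to anti-CD40 Ab moved Ido1 by 0.58 log2 units (95% confidence interval -0.24 to 1.39, adjusted p = 0.937, limma) and Wars by 0.40 (adjusted p = 0.937). The Ido1 difference was 0.295 without GEM/anti-CD40 Ab replicate 1 and 0.34 without anti-CD40 Ab replicate 3, and that of Wars was 0.17 without anti-CD40 Ab replicate 3. Kynu was 0.92 higher in GEM/anti-CD40 Ab than in anti-CD40 Ab tumors without overlap (4.30 to 5.94 against 3.89 to 4.25, exact permutation p = 0.0286), but its adjusted p was 0.937, and without GEM/anti-CD40 Ab replicate 1 the difference was 0.60. It was the only one of the 7 genes with an unadjusted p under 0.05, a level at which 1.71% of all probe sets were higher, and no probe set passed the adjustment (0%, with 2072 at an unadjusted p under 0.05).

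The effect of anti-CD40 Ab over all 16 tumors, averaged over the presence and absence of GEM, was the contrast in which Ido1 came nearest to the adjusted threshold. Ido1 averaged 9.43 ± 0.65 in the 8 tumors that received the antibody (lowest 8.44, median 9.34, highest 10.57) and 7.28 ± 1.38 in the 8 tumors that did not (lowest 5.96, median 6.7, highest 9.29, all SD). The log2 change was 2.15 (SE 0.46, 95% confidence interval 1.17 to 3.14) with an adjusted p of 0.0564 (limma). The adjusted p ranged from 0.0315 to 0.130 over the 27 alternative settings and was under 0.05 in 7 of them. Among these, leaving out control replicate 1, control replicate 4, GEM replicate 2 or GEM/anti-CD40 Ab replicate 3 gave 0.0414, 0.0328, 0.0388 and 0.0315. Wars was 0.43 higher (SE 0.15, unadjusted p = 0.0098, adjusted p = 0.222), and the changes of the other 5 genes lay between -0.11 and 0.34. Thus 2 of the 7 genes were higher at an unadjusted p under 0.05, against 5.82% of all probe sets and 7.53% of named genes. The adjustment, which 175 probe sets (0.389%) passed, was passed by 0 of 7.

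Whether the effect of anti-CD40 Ab differed in the presence of GEM was tested as an interaction over all 16 tumors. For Ido1 the interaction was 1.76 log2 units (95% confidence interval -0.21 to 3.73, adjusted p = 0.890, limma), for Kynu 0.95 (unadjusted p = 0.0283) and for Haao 0.27 (unadjusted p = 0.0166), both with an adjusted p of 0.890. Without GEM/anti-CD40 Ab replicate 1 the interaction of Kynu was 0.625. At an unadjusted p under 0.05, 2 of the 7 genes and 2.25% of all probe sets had a positive interaction, and no probe set passed the adjustment (0%, with 2359 at an unadjusted p under 0.05). A larger response of Ido1 to the antibody in GEM-treated tumors was thus not shown, and neither was an equal one.

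The remaining members had low signals that differed little between groups. Kmo, the monooxygenase that commits kynurenine to the NAD branch, read 5.44, 5.74, 5.00 and 5.33 in the GEM/anti-CD40 Ab tumors, 4.91, 4.78, 5.22 and 5.69 in the anti-CD40 Ab tumors, 5.12, 5.10, 5.40 and 5.62 in the GEM tumors and 5.44, 5.10, 5.49 and 5.46 in the control tumors. The groups overlapped in all comparisons and its pairwise log2 changes lay between -0.22 and 0.23. Ido2 averaged 4.29 ± 0.15, 4.215 ± 0.25, 4.115 ± 0.04 and 4.28 ± 0.20 in the GEM/anti-CD40 Ab, anti-CD40 Ab, GEM and control tumors (SD, n = 4), at the 27.5 to 31.0 percentile of the array. Tdo2, the liver dioxygenase, averaged 3.915 ± 0.13, 3.89 ± 0.12, 3.985 ± 0.07 and 4.03 ± 0.10 in the same order, at the 23.2 to 25.6 percentile. Its 2 other probe sets were dimmer still (4.4 to 11.4 percentile) and did not run in parallel with the first (pairwise r between -0.31 and 0.39).

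The level of Ido1 was then set against other genes, tumor by tumor. The 16 values fell on either side of a gap between 6.98 and 8.37, with 5 tumors below (GEM replicates 1, 3 and 4, and control replicates 2 and 3) and 11 above. Correlations were therefore tested over the 11 tumors above the gap only, for 7 genes. The gap was found in Ido1 itself, 8 of these 11 tumors received the antibody, and the permutations did not keep to treatment groups. Ifng, which encodes interferon gamma, was correlated with Ido1 (Pearson r = 0.892, Spearman rho = 0.882, permutation p adjusted over the 7 relations 0.0008 for r and 0.0052 for rho). Kynu (r = 0.845, adjusted permutation p = 0.0034, rho = 0.636, adjusted p = 0.0943) and Wars (r = 0.747, adjusted permutation p = 0.0233, rho = 0.683, adjusted p = 0.0856) passed for r alone. Kmo, Haao, Ido2 and Tdo2 had r between 0.0085 and 0.488 and did not pass. Without the 2 tumors farthest from the median of Ido1, r was 0.760 for Ifng, 0.767 for Kynu and 0.695 for Wars, with adjusted permutation p of 0.0731, 0.0731 and 0.131, so the relations rest in part on these tumors. Kynu lay above 4.48 only in GEM/anti-CD40 Ab replicates 1 and 2. Over all 16 tumors r with Ido1 was 0.81 for Ifng, 0.79 for Wars and 0.55 for Kynu. For Kmo, Haao, Ido2 and Tdo2 it lay between -0.21 and 0.29. Within treatment groups, as deviations from the group means of all 16 tumors, r with Ido1 was 0.60 for Ifng, 0.70 for Wars and 0.50 for Kynu.

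Ifng read 8.39, 6.41, 4.92 and 5.08 in the GEM/anti-CD40 Ab tumors, 4.77, 5.53, 4.87 and 5.36 in the anti-CD40 Ab tumors, 3.62, 4.02, 3.83 and 3.74 in the GEM tumors and 4.39, 3.59, 3.94 and 4.73 in the control tumors. The control tumors with high Ido1, replicates 1 and 4, were also those with the higher Ifng, and GEM replicate 2 had the highest Ifng of its group. Ifng in all GEM tumors and in control replicates 2 and 3 lay no higher than the range of Tdo2 (3.74 to 4.18), close to the array's floor. Differences among these low values carry little weight. Against GEM tumors, Ifng was 2.40 log2 units higher in GEM/anti-CD40 Ab tumors without overlap (SE 0.66, adjusted p = 0.256, limma).

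The genes whose pattern over the 16 tumors was most like that of Ido1, out of 18192 others, were Gbp2 (r = 0.995), Tap1 (0.988), Gbp6 (0.988), Igtp (0.985) and Gbp3 (0.982). Gbp2, Gbp3 and Gbp6 encode guanylate-binding proteins, Igtp another interferon-inducible GTPase, and Tap1 a subunit of the peptide transporter that feeds MHC class I. These values are a description, since the genes were picked for their likeness, the 16 tumors share the treatment groups and the Ido1 gap, and guanylate-binding proteins are close paralogs whose probe sets can share transcripts. Gbp2 showed the same split as Ido1, with 13.44, 13.06, 12.39 and 12.35 in the GEM/anti-CD40 Ab tumors, 12.57, 12.53, 12.07 and 12.78 in the anti-CD40 Ab tumors, 10.07, 12.06, 10.63 and 10.39 in the GEM tumors and 12.30, 10.47, 10.83 and 12.51 in the control tumors. Ranked the same way, Irf1 stood at place 25 (r = 0.961), Ifng at place 155, Wars at place 187 and Kynu at place 1000.

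**Figure D3:**
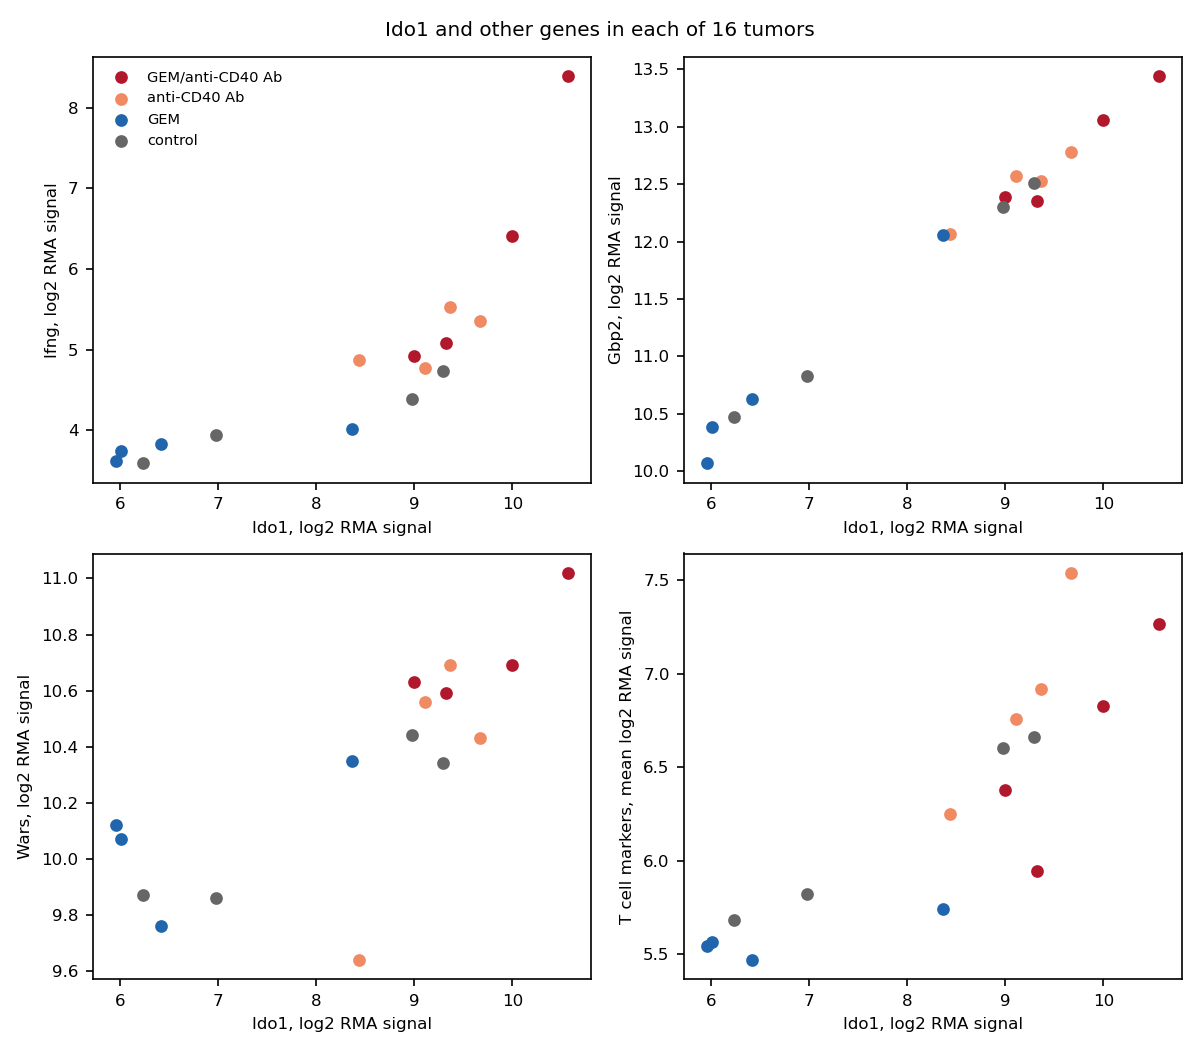
Log2 RMA signal of Ifng, Gbp2 and Wars and the mean log2 signal of 5 T cell markers (vertical axes) against that of Ido1 (horizontal axes), with 1 point for each of 16 tumors coloured by treatment. No tumor lies between 6.98 and 8.37 for Ido1, Gbp2 follows Ido1 nearly along a line, and the lowest Wars value (9.64) belongs to an anti-CD40 Ab tumor with Ido1 at 8.44.

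Like Ido1, markers of T cells, macrophages and endothelial cells were higher in GEM/anti-CD40 Ab against GEM tumors at an unadjusted p, and none of them passed the adjustment. The mean of 5 measured T cell markers was 5.95 to 7.26 in GEM/anti-CD40 Ab tumors, 6.25 to 7.54 in anti-CD40 Ab tumors, 5.47 to 5.74 in GEM tumors and 5.69 to 6.66 in control tumors, and 4 of the 5 were higher at an unadjusted p under 0.05 in GEM/anti-CD40 Ab against GEM tumors. Control replicates 1 and 4, which had the high Ido1 of that group, had T cell marker means of 6.60 and 6.66, against 5.69 and 5.82 in control replicates 2 and 3. In the GEM group, which held GEM replicate 2 with Ido1 at 8.37, all T cell marker means lay between 5.47 and 5.74. Of 8 macrophage markers, 5 were higher at that level, and their mean was 9.02 to 9.89 in GEM/anti-CD40 Ab tumors, 8.90 to 9.51 in anti-CD40 Ab tumors, 8.53 to 9.23 in GEM tumors and 8.76 to 9.29 in control tumors. In order of replicate number, this mean was 8.53, 8.61, 9.12 and 9.23 in GEM tumors and 9.11, 9.21, 8.76 and 9.29 in control tumors. GEM replicate 2, with the high Ido1 of its group, thus lay below GEM replicates 3 and 4. Only Lyz2, a lysozyme of macrophages and granulocytes, passed for anti-CD40 Ab over all 16 tumors (log2 change 0.76, adjusted p = 0.0434, limma). That is 1 of 8 macrophage markers, where 0.389% of all probe sets passed. Lyz2 lost the call in 11 of the 16 fits that left out 1 array (adjusted p up to 0.109, without control replicate 3). Its log2 change stayed between 0.68 and 0.83 in these fits. Of 6 endothelial markers, 5 were higher in GEM/anti-CD40 Ab against GEM tumors (list mean 6.25 to 7.33 against 5.99 to 6.45). Their list mean was 6.12 to 6.88 in anti-CD40 Ab tumors and 6.00 to 6.46 in control tumors. The control tumors thus lay at the level of GEM tumors, unlike the group means of Ido1. The 9 dendritic cell markers overlapped between GEM/anti-CD40 Ab (6.15 to 6.52) and GEM tumors (6.10 to 6.30). At an unadjusted p under 0.05, 2 of the 9 were higher and 1 lower, with a median log2 change of 0.00. Of 6 granulocyte markers, 2 were higher and 0 lower at that level, with a list mean of 6.78 to 7.30 in GEM/anti-CD40 Ab and 6.44 to 6.85 in GEM tumors. Of 5 hepatocyte markers 3 were lower and 0 higher, and of 6 fibroblast markers 1 was lower and 0 higher. None of the B cell, tumor epithelium, skin keratinocyte and skeletal muscle markers reached that level in either direction. Over all probe sets the shares were 5.08% higher and 6.49% lower. The part of these cells in the Ido1 values was not tested.

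Genes known to act upstream of Ido1 were compared next, in GEM/anti-CD40 Ab against GEM tumors. Of 15 measured, 11 were higher at an unadjusted p under 0.05 and 0 were lower, against 5.08% and 6.49% of all probe sets. Their median log2 change was 0.36, and none passed the adjustment. This list too was chosen with earlier results known, so the count is a description. Irf1, the transcription factor that carries the interferon gamma signal to the Ido1 promoter, read 11.77, 11.46, 10.71 and 10.87 in the GEM/anti-CD40 Ab tumors and 9.72, 10.51, 9.86 and 9.96 in the GEM tumors, a log2 change of 1.19 without overlap (SE 0.25, adjusted p = 0.197, limma). Socs1, the feedback inhibitor of Jak kinases, differed by 1.40 (adjusted p = 0.237) and Tgfb1, a cytokine that sustains Ido1 in dendritic cells, by 0.31 (adjusted p = 0.225), or by 0.13 with all probe sets of the gene averaged.

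The other 18 measured cytosolic aminoacyl-tRNA synthetases did not share the size of the Wars difference. In GEM/anti-CD40 Ab against GEM tumors their log2 changes ran from -0.12 to 0.32 with a median of 0.06, and all 18 lay below Wars at 0.66. Cars (0.32, adjusted p = 0.256, limma), Gars (0.17, adjusted p = 0.419) and Aars (0.16, adjusted p = 0.442), which load cysteine, glycine and alanine, had the smallest p among them, and Cars gave 0.18 with its probe sets averaged. All 18 also lay below Wars in GEM/anti-CD40 Ab against control tumors (highest 0.23 against 0.605 for Wars) and for anti-CD40 Ab over all 16 tumors (highest 0.18 against 0.43), which share arrays with the first comparison. In anti-CD40 Ab against control tumors Wars (0.20) lay only just above the highest of them, Lars (0.18). Without the skin or muscle arrays, Wars changed by -0.0033 in that comparison. In GEM against control tumors, where Wars changed by -0.05, 4 of the 18 lay below it.

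A further list held 12 measured enzymes of kynurenine metabolism, its side branches and NAD synthesis. Of these, 1 was higher (unadjusted p under 0.05) and 1 lower in GEM/anti-CD40 Ab against GEM tumors, with a median log2 change of -0.04. Over all probe sets 5.08% were higher and 6.49% lower, so 1 of 12 in each direction lay near the background. These were Nampt, which makes NAD from nicotinamide (0.505, adjusted p = 0.291, limma), and Nmnat3, a late step of NAD synthesis (-0.245, adjusted p = 0.281). With all probe sets of a gene averaged, Nmnat3 gave -0.098. Naprt, which uses nicotinic acid, changed by -0.12 (adjusted p = 0.567), and by -0.071 without GEM/anti-CD40 Ab replicate 1. Of 6 enzymes that use tryptophan or its products outside the kynurenine route, 2 were lower and 0 higher at that level, beside the same shares of all probe sets.

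Ddc, the decarboxylase that turns 5-hydroxytryptophan into serotonin and DOPA into dopamine, was lower with anti-CD40 Ab over all 16 tumors. It read 8.05, 8.25, 8.40 and 7.97 in the GEM/anti-CD40 Ab tumors, 8.21, 8.74, 7.87 and 8.14 in the anti-CD40 Ab tumors, 9.19, 8.55, 9.25 and 9.68 in the GEM tumors and 8.41, 9.15, 9.24 and 8.84 in the control tumors. Tumors with the antibody averaged 8.20 ± 0.27 and those without it 9.04 ± 0.41 (SD, n = 8 each), with 8.74 in the highest tumor with the antibody and 8.41 in the lowest without. The log2 change was -0.835 (SE 0.16, adjusted p = 0.0447, limma). Ddc was 1 of 6 listed enzymes, and 0.389% of all probe sets passed in this contrast. The call was lost in 12 of 16 fits that left out 1 array (adjusted p up to 0.111, without control replicate 3), with log2 changes of -0.94 to -0.75, and kept without control replicate 1, anti-CD40 Ab replicate 2, GEM replicate 2 or GEM/anti-CD40 Ab replicate 3. With all probe sets of a gene averaged, the change was -0.48.

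Among the pathway lists, the NAD-consuming enzymes held the other genes that passed. Bst1, an ecto-enzyme that makes cyclic ADP-ribose from NAD on stromal and myeloid cells, rose with anti-CD40 Ab over all 16 tumors by 1.57 log2 units (SE 0.28, adjusted p = 0.0345, limma), with 8.66, 7.33, 6.28 and 6.69 in the GEM/anti-CD40 Ab tumors, 5.82, 5.50, 6.56 and 6.63 in the anti-CD40 Ab tumors, 4.89, 5.12, 5.16 and 5.24 in the GEM tumors and 5.21, 4.87, 4.85 and 5.60 in the control tumors. Parp14, an interferon-inducible mono-ADP-ribosyltransferase, rose by 1.21 (SE 0.23, adjusted p = 0.0434). It read 10.33, 9.69, 8.97 and 9.11 in the GEM/anti-CD40 Ab tumors, 9.31, 9.24, 8.99 and 9.48 in the anti-CD40 Ab tumors, 7.66, 8.53, 7.76 and 7.95 in the GEM tumors and 8.83, 7.68, 7.92 and 9.14 in the control tumors. They were 2 of 8 measured NAD-consuming enzymes, beside 175 of 45037 probe sets (0.389%) that passed in this contrast. For both genes the lowest tumor with the antibody (5.50 for Bst1, 8.97 for Parp14) lay just below the highest without it (5.60 and 9.14). Both calls lay close to the threshold. Bst1 lost its call in 9 of 16 fits that left out 1 array, with an adjusted p of up to 0.0958 (without anti-CD40 Ab replicate 4), and kept it without control replicate 1 or 4, anti-CD40 Ab replicate 2, GEM replicate 2, or GEM/anti-CD40 Ab replicate 1, 3 or 4. Parp14 lost it in 11 (up to 0.110, without control replicate 3) and kept it without control replicate 1 or 4, GEM replicate 2, or GEM/anti-CD40 Ab replicate 3 or 4. In these fits the log2 changes were 1.33 to 1.73 for Bst1 and 1.07 to 1.33 for Parp14, and that of Parp14 was 0.78 with all probe sets of a gene averaged.

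Readouts of tryptophan shortage and of kynurenine signaling were mixed. Of 9 measured genes of the amino acid starvation response, 4 were higher (unadjusted p under 0.05) and 0 lower in GEM/anti-CD40 Ab against GEM tumors (median 0.175), beside 5.08% and 6.49% of all probe sets, among them Chac1, a glutathione-degrading enzyme (0.79, adjusted p = 0.264, limma), the pseudokinase Trib3 (0.48, adjusted p = 0.386) and the transcription factor Ddit3 (0.48, adjusted p = 0.399). Trib3 gave 0.32 without GEM/anti-CD40 Ab replicate 1, and Ddit3 gave 0.21 with all probe sets of a gene averaged. Against control tumors, 0 of the 9 were higher and 1 lower in GEM/anti-CD40 Ab tumors, beside 4.34% and 5.23% of all probe sets. The list mean was 9.31 in GEM/anti-CD40 Ab, 9.32 in anti-CD40 Ab, 9.07 in GEM and 9.21 in control tumors. Listed for kynurenine signaling were 9 genes, namely the aryl hydrocarbon receptor, its partners and targets, and Gpr35. In GEM/anti-CD40 Ab against GEM tumors 3 of them were higher and 1 lower, beside 5.08% and 6.49% of all probe sets. Tiparp, a target of the receptor, differed by 0.295 (adjusted p = 0.230), Gpr35, which binds kynurenic acid, by 1.01 (adjusted p = 0.237) and the quinone reductase Nqo1, a target shared with other stress pathways, by -0.62 (adjusted p = 0.220). Of 8 transporters of tryptophan and kynurenine, 1 was higher and 0 lower, near the background, namely Slc3a2, the heavy chain of the large neutral amino acid exchangers (0.25, adjusted p = 0.406). Slc7a11, the cystine-glutamate exchanger, changed by 0.54 (adjusted p = 0.480) and the light chain Slc7a8 by 0.41 (adjusted p = 0.530). Without GEM/anti-CD40 Ab replicate 1 these changes were 0.30 and 0.22. No gene of these 3 lists passed the adjustment in any of the comparisons.

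**Figure D4:**
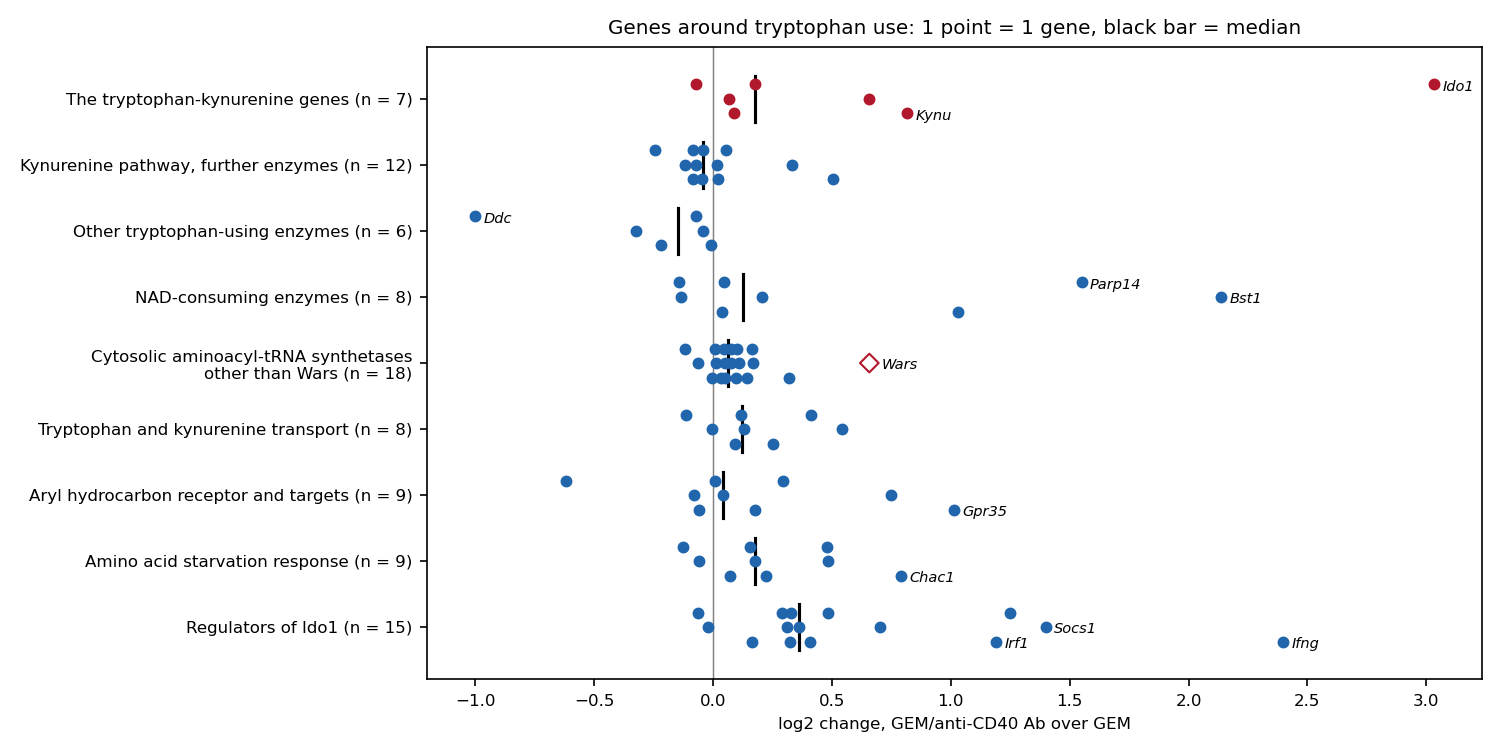
Log2 change of single genes (points) in GEM/anti-CD40 Ab over GEM tumors, in rows for the 7 tryptophan-kynurenine genes and 8 lists of related genes, with the median of each row as a black bar and Wars repeated as a diamond beside the other synthetases. Ido1 (3.03) and Ifng (2.40) lie farthest to the right, and the medians of the lists lie between -0.15 and 0.36.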

How the data were processed

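The authors ran RMA in Chipster, which corrects background, normalizes between arrays and sums up probes, and deposited log2 signals with 2 decimals. For the RMA version, and for which arrays it normalized together, the sources used here give nothing. Without 64 array controls, 45037 probe sets entered each fit, with no filter on low values. Symbols came from the platform annotation. Pairs of groups were fitted on their own 8 arrays in limma 3.58.1 in R 4.3.3, two-sided, with Benjamini-Hochberg adjustment over all 45037. The anti-CD40 Ab main effect and the interaction used all 16 arrays. Exact permutation tests served single genes, and correlations used 100000 permutations.

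The 7 members, the 8 pathway lists and the 11 marker lists were chosen with earlier results of these data known. From each list the genes that passed are named, or otherwise up to 3 with the smallest p in GEM/anti-CD40 Ab against GEM. The 5 genes most like Ido1 are named by Pearson r. As a check of the code, arrays were simulated with independent normal noise for each probe set. There the GEM/anti-CD40 Ab against GEM fit recovered 86% of simulated log2 changes of 1 and 99% of those of 2, with 8 wrong calls. Such arrays lack the variation that probe sets share between tumors. These shares are therefore not the power of the real comparison, in which 0 of 45037 probe sets passed. Replicate numbers were not used to pair the arrays, except in the alternative with a replicate block. Precision is limited by 4 arrays per group, and p-values cover the spread between these tumors.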

Additional observations from a re-analysis of the deposited data

Results flagged for a closer look

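A single tumor far from the other 3 of its group was found in 3 of 28 groups of 4 values (7 genes in 4 treatment groups), where chance alone gives about 5%. Ido2 in GEM replicate 1 was 4.18 and lay above the other GEM tumors (4.09 to 4.10). Kmo in control replicate 2, the array with skin keratinocyte genes, was 5.1 against 5.44 to 5.49 in the other control tumors. Haao in anti-CD40 Ab replicate 1 was 5.6 against 5.41 to 5.43 in the other anti-CD40 Ab tumors.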

How the results depend on the processing

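No gene of the set passed an adjusted p of 0.05 in the 5 pairwise comparisons or the interaction under any alternative run. For anti-CD40 Ab over all 16 tumors 1 gene, Ido1, passed with dim probe sets left out (adjusted p = 0.0395, limma), with array weights (0.0337) and with probe sets averaged per gene (0.0484), and 0 to 1 genes passed with 1 array left out. The log2 change of Ido1 kept its sign in every comparison and alternative. With the replicate block the adjusted p of Ido1 (limma) was 0.0827 over all 16 tumors and 0.280 for GEM/anti-CD40 Ab against GEM. The block changed no call of the 7 genes. Deviations of tumors with the same number had r from -0.266 to 0.273 over 24 pairs, with 10 pairs over 0.1. All pairs of replicate number 4 were positive (0.045 to 0.273), so a shared part for that number is not excluded. Ddc, Parp14, Bst1 and Lyz2 lost their call with the replicate block (adjusted p = 0.0801, 0.0671, 0.0671 and 0.0688), with a trended and robust prior, with GEM 3 and 4 averaged and with the 3 skin or muscle arrays left out. Their log2 changes with the block were -0.835, 1.21, 1.57 and 0.76, as without it, and moved by less than 1.5 times in the other 3 settings. Probe sets called by the other settings numbered 7 to 701 for anti-CD40 Ab over all 16 tumors, 0 to 44 for GEM/anti-CD40 Ab against control, 0 to 8 for GEM against control, 0 to 3 for anti-CD40 Ab against control and 0 to 1 for GEM/anti-CD40 Ab against GEM.

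Correlations with Ido1 over the tumors above the gap fell to r = 0.767 for Kynu, 0.695 for Wars and 0.760 for Ifng without the 2 arrays farthest from the median of Ido1, where none passed. Some changes near 0 turned sign, and the cause was not tested. These were Tdo2 with probe sets averaged (0.019, GEM/anti-CD40 Ab against GEM), Ido2 (-0.040) and Kmo (-0.045) with 75th percentile scaling and Kmo (-0.070) without the skin or muscle arrays (GEM/anti-CD40 Ab against control), and Wars without those arrays (-0.0033, anti-CD40 Ab against control) or with GEM 3 and 4 averaged (0.00083, GEM against control). With 1 array left out, GEM/anti-CD40 Ab against GEM gave -0.053 to 0.193 for Kmo, and GEM/anti-CD40 Ab against control -0.060 to 0.083 for Ido2 and -0.116 to 0.131 for Kmo. Ido2 ran from -0.177 to 0.0067 in anti-CD40 Ab against control and from -0.00083 to 0.092 for anti-CD40 Ab over all 16 tumors. GEM against control gave -0.144 to 0.0525 for Wars, -0.076 to 0.0017 for Tdo2, -0.109 to 0.072 for Kynu and -0.166 to 0.0075 for Kmo, and GEM/anti-CD40 Ab against anti-CD40 Ab -0.025 to 0.083 for Tdo2. Signal close to the array's floor limits what Ido2, Tdo2 and Kynu can show, and Ifng in tumors without the antibody.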
